A study of Mus musculus with 15 samples.

Results

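The RBM genes encode RNA-binding motif proteins, and they are described here in CD8+ T cells that were primed in vivo with antigen alone (Ag) or with antigen and costimulation (Ag+Costim). Members were chosen by name: every protein-coding gene of GENCODE vM21 whose symbol is Rbm followed by a digit. This gave 37 members among 55536 annotated genes, and 2 further genes with such symbols were not analysed here. Of the 37 members, 35 passed the filter on low counts, and Rbm24 and Rbm46 did not.

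Both groups held CD8+ T cells of OT-1 Tg C57BL/6J mice, whose transgenic T cell receptor recognises the ovalbumin peptide SIINFEKL, transferred into C57BL6/J recipients. Ag recipients were given the peptide with control rat IgG. Ag+Costim recipients were given the peptide with agonist antibodies against OX40 (CD134) and 4-1BB (CD137), both of them costimulatory receptors of the TNF receptor family. Cells of spleen and lymph nodes were sorted as CD8+ cells with the congenic marker and receptor chains of the donor. The labels place collection on day 4, whereas the methods give a shorter time, and each group had 5 libraries. Since every donor cell carried the same receptor, one T cell clone stood for the CD8+ response in both groups, and agonist antibodies stood in for the natural ligands of the costimulatory receptors. Counts of naive OT-I cells, the third group in the labels, were not analysed here.

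Most RBM proteins carry one or several RNA recognition motifs, a small fold that grips a short stretch of single-stranded RNA. They act at nearly every step of the life of an RNA: they help to choose splice sites, mark exon junctions, bring the m6A methyltransferase to its targets, process ribosomal RNA, hand RNA to the nuclear exosome, or bind 3' ends and set RNA stability. Several RBM genes make transcripts that skip an exon, carry an early stop codon or keep an intron, forms that nonsense-mediated decay (NMD) removes or that stay in the nucleus. T cell activation is known to be accompanied by wide changes in splicing and in 3' end choice.

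Stretches of RBM transcripts on which the splicing results turn are shown first, from the GENCODE vM21 transcripts (GRCm38) and 5' to 3' on the transcript strand. The first opens the additional exon of the Rbm7 NMD transcript Rbm7-204, chr9:48494364-48494387 on the minus strand, with the annotated stop codon in capitals. In the other 3, capitals mark the alternative stretch and lower case the neighbouring bases of the spliced RNA.
Rbm7-204: tatttgaggcagagagccataTAG
Rbm5 exon: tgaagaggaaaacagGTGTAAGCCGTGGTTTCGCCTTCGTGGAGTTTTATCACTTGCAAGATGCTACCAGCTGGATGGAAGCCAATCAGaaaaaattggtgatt
Rbm34 exon: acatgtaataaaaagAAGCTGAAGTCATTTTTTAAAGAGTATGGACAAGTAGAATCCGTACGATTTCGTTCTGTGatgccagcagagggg
Rbm42 exon: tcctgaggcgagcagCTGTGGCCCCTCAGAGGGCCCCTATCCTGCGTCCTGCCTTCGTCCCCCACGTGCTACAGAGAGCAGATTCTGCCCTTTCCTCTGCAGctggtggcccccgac
The Rbm5 exon (chr9:107759776-107759849, minus strand) has 74 bases, which is not a multiple of 3, so that its loss in Rbm5-210 shifts the reading frame. The Rbm34 exon (chr8:126961912-126961971, minus strand) has 60 bases and its inclusion keeps the frame. The Rbm42 stretch joins an exon of 66 bases (chr7:30645919-30645984, minus strand) to 21 added bases (chr7:30645822-30645842) of the next exon, both present in Rbm42-201 and both keeping the frame.

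The Ag+Costim libraries were alike, whereas the Ag libraries differed among themselves, and each RBM result has to be read against that spread. Estimated counts totalled 59.6 M to 449.4 M in the Ag libraries and 332.3 M to 639.1 M in the Ag+Costim libraries, and Ag replicate 3 was the shallowest. Genes with any counts numbered 48058, 51778 and 40441 in Ag replicates 1, 3 and 4, but 21779 and 20714 in Ag replicates 2 and 5. In Ag+Costim they numbered 28727 to 30340. CD8 T cell markers summed to 3463 to 6793 CPM (counts scaled to library totals adjusted by TMM factors) in Ag and 4601 to 5563 in Ag+Costim, so the labelled cell type was present in every library. Cell cycle genes summed to 1291 CPM in Ag replicate 1 and 1389 in Ag replicate 4, against 6140 to 10806 in the other 3 Ag libraries and 9804 to 12557 in Ag+Costim. The B cell gene Ms4a1 stood at 17.2, 54.9 and 20.9 CPM in Ag replicates 1, 3 and 4, at 0.239 and 0.277 in Ag replicates 2 and 5, and at 1.64 to 5.25 in Ag+Costim. Summed erythroid markers ran from 14.7 to 1103 CPM in Ag, the highest in Ag replicate 3, and from 3.80 to 39.8 in Ag+Costim. B cell markers as a list summed to 643 to 1179 CPM in Ag and 515 to 764 in Ag+Costim. Most of that sum was Ighm, at 602 to 1038 CPM in Ag and 500 to 737 in Ag+Costim. Its lowest Ag value was in Ag replicate 3, where Ms4a1 was highest. Natural killer markers summed to 2.09 to 20.1 CPM in Ag and 0.537 to 2.22 in Ag+Costim, CD4 T cell markers to 1.21 to 16.3 and 2.43 to 5.77, myeloid markers to 40.6 to 139 and 70.6 to 163, and mitochondrial transcripts to 7751 to 10841 and 6595 to 8065. The part of these differences in the RBM results was not tested. In such bulk samples, fewer cells of a type and less RNA per cell cannot be told apart.

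To understand whether costimulation altered the expression of the family, gene counts of Ag+Costim were compared with those of Ag. No RBM gene passed the test, and neither did any other gene: edgeR's quasi-likelihood test with Benjamini-Hochberg (BH) adjustment called 0 of 24262 genes in either direction (0.0% in each). Without adjustment, 8 of the 35 members had a p under 0.05. Of these, 7 had the higher mean in Ag+Costim, where 7.89% of all genes tested did so, and 1, Rbm42, had the lower mean, where 10.7% of all genes did. These 2 shares are not given for genes that averaged at least 10 CPM, to which 28 of the 35 members belong. The median log2 fold change was -0.32 over all genes tested but 0.24 over genes at that level. A higher share among members thus cannot be told apart from an effect of their level. The count of 8 became 6 with DESeq2 factors or total counts, 4 with upper quartile scaling and 5 to 12 without any 1 library. Over all genes, the count without any 1 library also moved widely, from 2766 to 9197. The shares of all genes under the other scalings are not given here. Groups did not overlap in 5 members, Rbm38, Rbm15, Rbm27, Rbm6 and Rbm48, each with every Ag+Costim library above every Ag library (background 4.48% of all genes tested, and 11.3% of the 8626 genes that averaged at least 10 CPM). All 5 belonged to the 28 members at 10 CPM or more, of which they made up 17.9%. No member was lower without overlap (background 1.13%, and 0.22% at 10 CPM or more).

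Rbm38, which binds U-rich elements of 3' ends and is a target of p53 that stabilises the mRNA of the cell cycle inhibitor p21, had the lowest p of the family. In the Ag libraries it stood at 42.4, 32.7, 35.9, 43.1 and 37.3 CPM (38.3 ± 4.42, SD, n = 5), and in the Ag+Costim libraries at 66.5, 66.3, 63.2, 71.1 and 66.2 CPM (66.7 ± 2.82). On this scale the lowest Ag+Costim library lay above the highest Ag library, and Ag replicates 1 and 4, low in cell cycle genes, had the 2 highest values of their group. With counts scaled to library totals alone the groups overlapped, at 29.6 to 59.3 in Ag and 57.7 to 63.1 in Ag+Costim. The log2 fold change was 0.80 ± 0.118 (SE), with an unadjusted p of 3.05e-05 and an edgeR BH of 0.117. The gene lies at chr2:173020498-173034734 on the plus strand (mm10) and was measured with 2550 to 36866 counts per library.

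Rbm15, which recruits the m6A methyltransferase to RNA, had the largest log2 fold change among the members whose groups did not overlap, with TMM factors and all libraries. Without Ag replicates 1 and 4 it was 0.74, against 0.93 for Rbm38. It was at 11, 16.2, 16.0, 13.6 and 20.6 CPM in Ag (15.5 ± 3.55) and at 29.4, 29.6, 25.2, 35.1 and 26.7 CPM in Ag+Costim (29.2 ± 3.78). Here Ag replicates 1 and 4 were the 2 lowest Ag libraries and Ag replicate 5 the highest. The log2 fold change was 0.91 ± 0.177, with an unadjusted p of 0.000327 and an edgeR BH of 0.134. Its paralog Rbm15b, which serves the same methyltransferase, was at 11.7 ± 2.27 CPM in Ag and 12.4 ± 2.31 in Ag+Costim, with a log2 fold change of 0.08 that was negative under the other 3 scalings.

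The promoters of these 2 members, from RefSeq (GRCm38.p6), are shown because their levels differed most clearly between the groups. Each runs from 250 bases before the RefSeq start to 50 bases after it, with the motif CCAAT in capitals where it stands on the strand shown or its complement.
Rbm15, chr3:107333240-107333539, minus strand: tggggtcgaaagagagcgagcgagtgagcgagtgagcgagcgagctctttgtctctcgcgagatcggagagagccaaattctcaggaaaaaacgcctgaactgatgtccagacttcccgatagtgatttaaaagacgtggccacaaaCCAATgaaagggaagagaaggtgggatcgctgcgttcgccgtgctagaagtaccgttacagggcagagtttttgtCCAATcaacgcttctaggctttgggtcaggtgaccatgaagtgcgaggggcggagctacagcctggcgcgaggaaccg
Rbm38, chr2:173021652-173021951, plus strand: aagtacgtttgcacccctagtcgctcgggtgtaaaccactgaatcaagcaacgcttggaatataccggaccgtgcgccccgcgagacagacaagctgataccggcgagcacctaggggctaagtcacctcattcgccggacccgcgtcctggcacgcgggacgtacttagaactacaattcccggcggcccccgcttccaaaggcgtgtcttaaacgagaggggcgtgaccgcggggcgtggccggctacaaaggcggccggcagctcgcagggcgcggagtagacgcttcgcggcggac
The Rbm15 window held CCAAT at 2 places, and the Rbm38 window held none. Neither held CACGTG, the E-box letters bound by Myc. On either strand, CCAAT was found in 37.4% of 32851 promoter windows of this length and CACGTG in 7.15%. Among the members, 29 had a promoter in the table, of which 13 held CCAAT and 3 held CACGTG. The GC content was 54.3% in the Rbm15 window and 63.7% in the Rbm38 window.

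Rbm27 and Rbm6 followed with smaller differences. Rbm27, a zinc finger protein of the nuclear RNA decay machinery, was at 41.0, 44.5, 48.7, 46.6 and 52.4 CPM in Ag against 62.2, 61.5, 54.1, 61.6 and 63.1 CPM in Ag+Costim (log2 fold change 0.38 ± 0.114, unadjusted p = 0.00713, edgeR BH 0.214). Rbm6, a regulator of exon inclusion related to RBM5 and RBM10, was at 78.9, 85.8, 79.9, 92.5 and 77.8 CPM in Ag against 97.4, 103, 105, 102 and 111 CPM in Ag+Costim (0.32 ± 0.111, unadjusted p = 0.0144, edgeR BH 0.239). For Rbm48, a protein of the minor spliceosome, the gap between the groups was narrow: 14.9, 20.1, 19.3, 19.8 and 18.5 CPM in Ag against 20.4, 20.5, 20.8, 21.3 and 21.2 CPM in Ag+Costim. The highest Ag library was thus just below the lowest Ag+Costim library. Its fold change of 0.17 on the log2 scale had an unadjusted p of 0.180 and turned to -0.11 with total counts and -0.06 with upper quartile scaling.

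**Figure D1:**
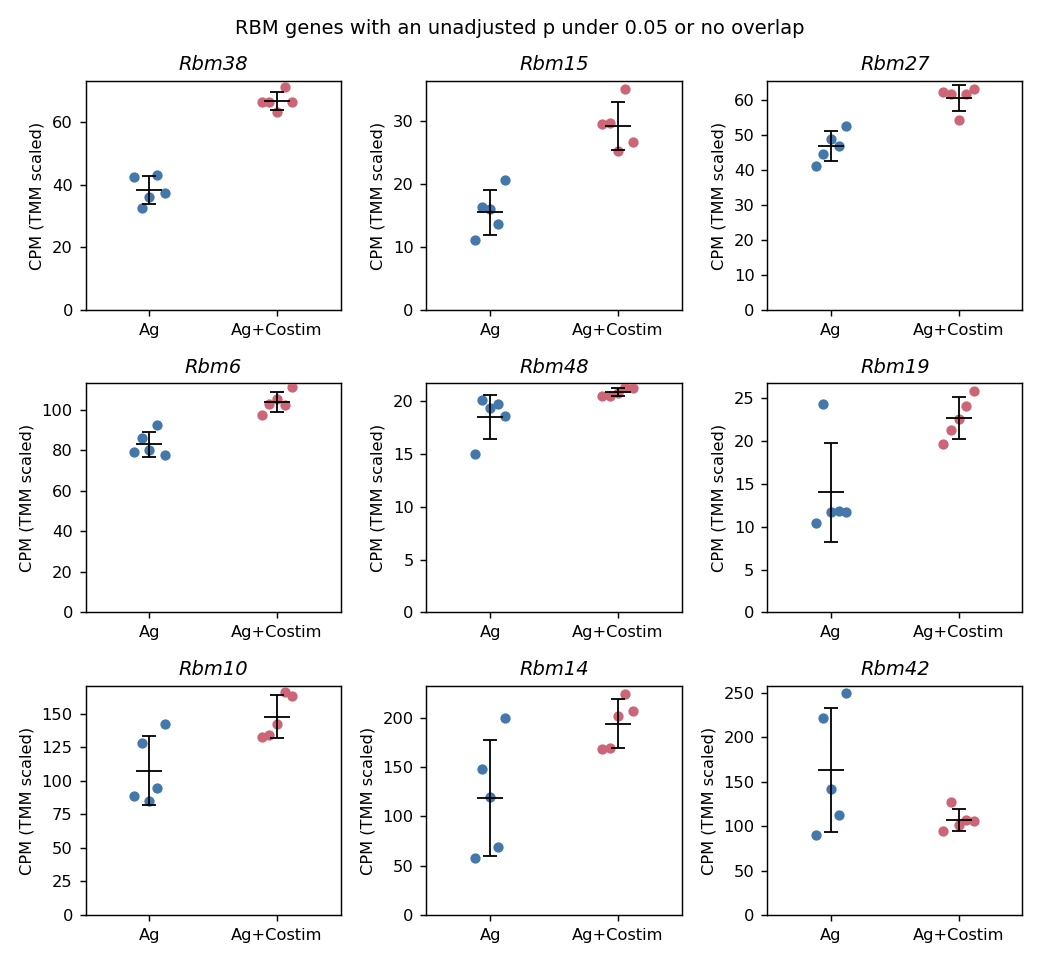
Normalised counts (CPM, TMM scaled, y axis from 0) of the 9 RBM genes with an unadjusted edgeR p under 0.05 or without overlap between the groups. Each point is 1 library, the horizontal line is the group mean and the bar 1 SD (n = 5). Rbm38, Rbm15, Rbm27, Rbm6 and Rbm48 show no overlap, while Rbm19, Rbm10, Rbm14 and Rbm42 overlap because of the spread within Ag.

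The other 4 members with an unadjusted p under 0.05 overlapped between the groups. Rbm19, needed for ribosomal RNA processing in the nucleolus, ranged from 10.5 to 24.3 CPM in Ag and from 19.7 to 25.8 in Ag+Costim (log2 fold change 0.69, unadjusted p = 0.0130, edgeR BH 0.236), and its Ag replicate 2 alone lay within the Ag+Costim range. Rbm10, which promotes exon skipping, ranged from 84.7 to 142 CPM in Ag and from 133 to 166 in Ag+Costim (0.46, unadjusted p = 0.0250, edgeR BH 0.256). Rbm14, a paraspeckle protein and coactivator, ranged from 57.4 to 200 CPM in Ag and from 168 to 224 in Ag+Costim (0.71, unadjusted p = 0.0453, edgeR BH 0.268). Rbm42, a splicing protein of the tri-snRNP, ranged from 89.7 to 250 CPM in Ag and from 94.9 to 128 in Ag+Costim (-0.61, unadjusted p = 0.0464, edgeR BH 0.268), but its counts share a locus with another annotated gene, as described with its transcripts.

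Across the members at 10 CPM or more, the spread within Ag was the main feature of the data. The SD was a median of 23.9% of the mean in Ag and 6.80% in Ag+Costim, and it was larger in Ag for 26 of 28 members. The SD in Ag was a median of 2.42 times that in Ag+Costim for these members and 3.26 times for all genes at this level. Members followed the split between Ag libraries in both directions. Ag replicates 1 and 4 were the 2 lowest Ag libraries in 9 of the 28 members (32.1%, against 40.3% of all genes at this level) and the 2 highest in 6 (21.4%, against 19.1%). Rbm3, the cold-inducible member, was among the first kind, at 133, 443, 272, 168 and 561 CPM in Ag against 461, 438, 420, 393 and 409 CPM in Ag+Costim. Rbm39, a partner of the splicing factor U2AF, and Rbm5, a regulator of exon skipping, were among the second. Rbm39 was at 416, 381, 245, 473 and 327 CPM in Ag (354 ± 23.6 in Ag+Costim), and Rbm5 at 224, 164, 115, 236 and 127 CPM (149 ± 8.42 in Ag+Costim).

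**Figure D2:**
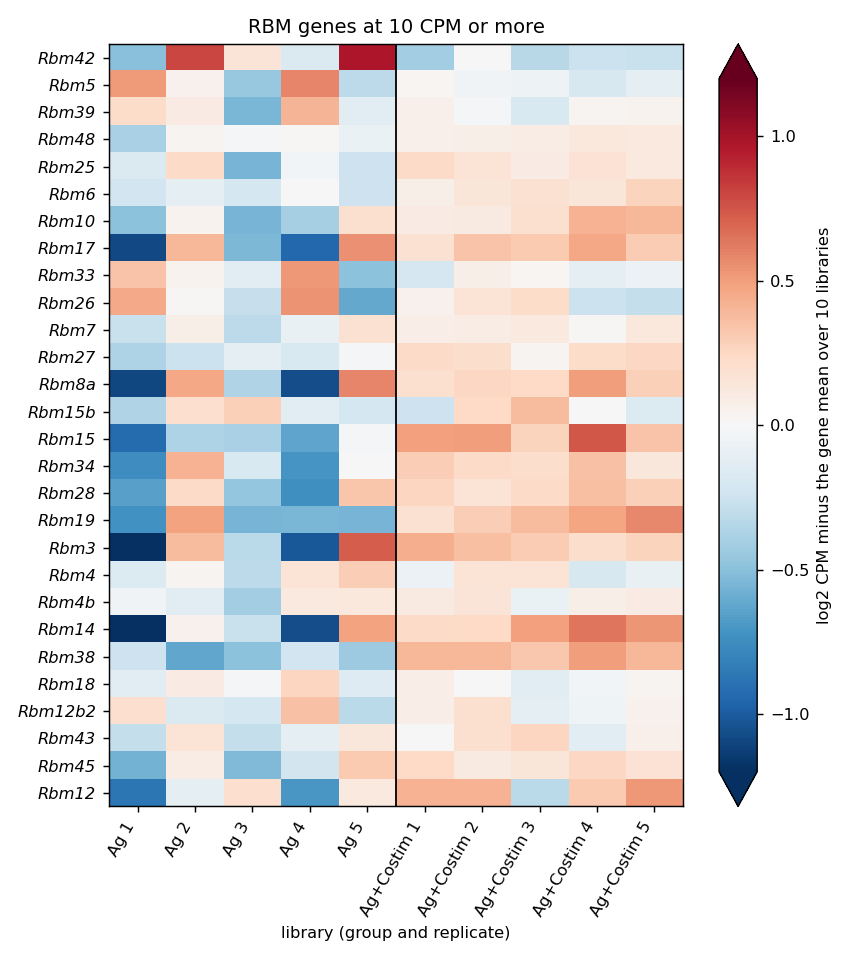
Level of the 28 RBM genes that averaged at least 10 CPM, in each of the 10 libraries (x axis: group and replicate). Colour gives log2 CPM minus the mean of that gene over all libraries, red higher and blue lower, and rows are ordered by role. The 5 Ag+Costim columns look alike, and among the Ag columns replicates 1 and 4 stand apart.

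Leaving out libraries changed which members passed the test. Without Ag replicates 1 and 4, still no member passed (Rbm38 BH 0.0532, edgeR). Rbm38, Rbm15, Rbm27, Rbm6, Rbm48 and Rbm12b2 were then higher without overlap (background 6.68%), and Rbm42 was lower (background 2.59%). Without Ag replicates 1, 3 and 4, the 3 with the most Ms4a1 signal, 2 Ag libraries remained and 5 members passed the same edgeR test. These were Rbm38 (log2 fold change 0.96, BH 0.00457), Rbm15 (0.70, BH 0.0288), Rbm6 (0.37, BH 0.0359) and Rbm20 (3.07, BH 0.0283), all higher (background 7.51%), and Rbm42 (-1.10, BH 0.00532), lower (background 3.32%). With those libraries left out, 10 members were higher without overlap (background 19.2%) and Rbm42 was lower (background 11.4%). This choice of libraries was made after their values had been seen. Rbm20, the titin splicing factor of heart muscle, is a member of very low level here, and it had a log2 fold change of -1.57 with all 10 libraries.

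DESeq2 with the same counts called 4 members higher, Rbm38, Rbm15, Rbm27 and Rbm19 (background 2.57% of 36117 genes), and 2 lower, Rbm42 and Rbm24 (background 19.7%). Limma voom, which gave each library a quality weight, called 19 members higher (background 25.8%) and 5 lower (background 26.4%). For both tools the backgrounds cover all genes tested and are not given for genes at 10 CPM or more. Those weights were 0.0986 for Ag replicate 2, 0.0656 for Ag replicate 5 and 0.508 for Ag replicate 3, against 1.42 and 2.00 for Ag replicates 1 and 4 and 1.70 to 3.35 for Ag+Costim.

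The scaling of the libraries set the direction of the family as a whole. With TMM factors the median log2 fold change of the 35 members was 0.17 (23 higher, 12 lower), with DESeq2 size factors 0.04 (20 and 15), with upper quartile scaling -0.06 (17 and 18) and with total counts -0.10 (17 and 18). For all genes tested the medians were -0.32, -0.48, -0.58 and -0.65 in the same order. At 10 CPM or more, the median of the 28 members was 0.31 with TMM factors, 0.17 with DESeq2 size factors, 0.07 with upper quartile scaling and 0.02 with total counts, beside 0.24, 0.12, 0.02 and 0.00038 for all genes at that level. With total counts, the scaling that gave the lowest values, the log2 fold changes were 0.49 for Rbm38, 0.67 for Rbm15, 0.10 for Rbm27 and 0.03 for Rbm6. Rbm38 and Rbm15 stayed without overlap under DESeq2 and upper quartile scaling (background 2.88% and 1.48%), and no member was lower without overlap under these (background 1.53% and 2.28%). With total counts, Rbm15 and Rbm10 were higher without overlap (background 2.76%) and Rbm42 was lower without overlap (background 1.85%). The backgrounds under these 3 scalings cover all genes tested and are not given for genes at 10 CPM or more. With TMM factors, the share higher without overlap was 4.48% of all genes tested and 11.3% at that level.

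**Figure D3:**
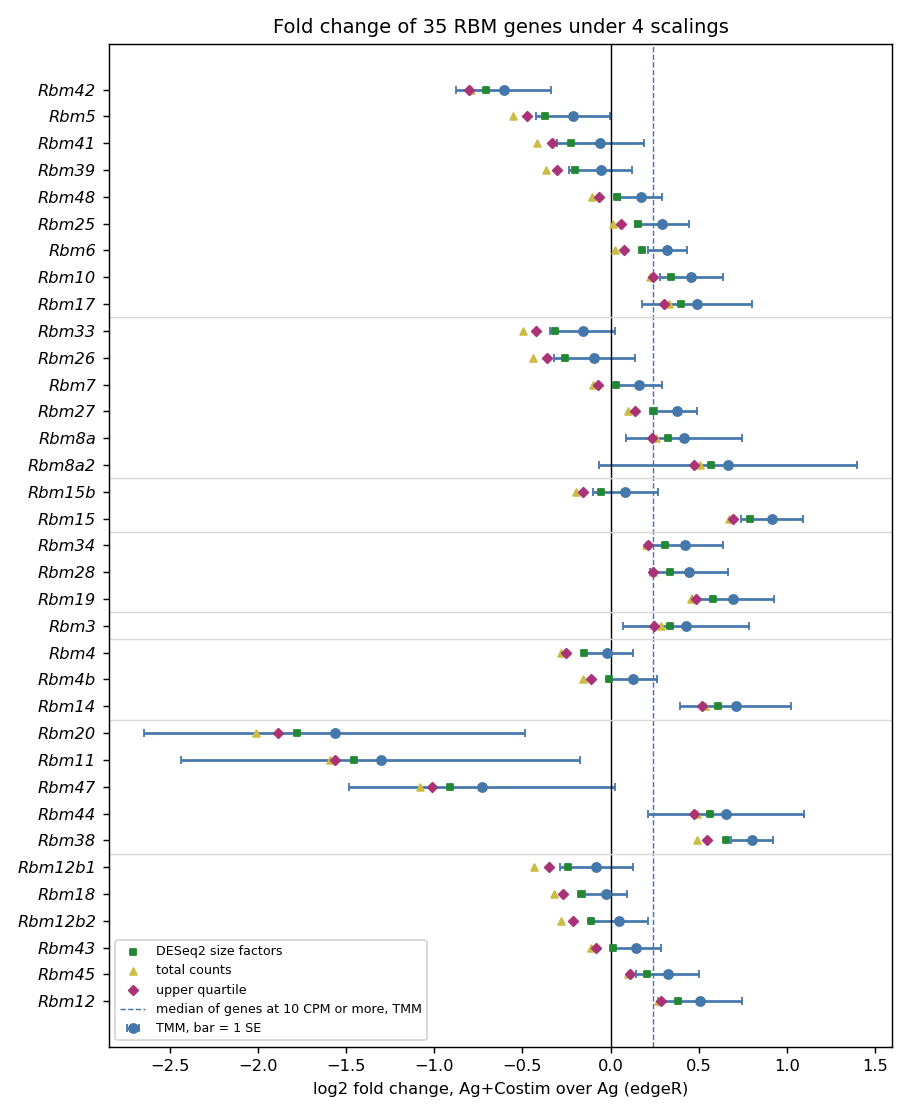
Log2 fold change (x axis, Ag+Costim over Ag, edgeR) of the 35 RBM genes tested, grouped by role, with bars of 1 SE for TMM scaling and symbols for the other 3 scalings. The dashed line is the median of all genes at 10 CPM or more with TMM factors, 0.24. Rbm38 and Rbm15 lie to its right, Rbm42 lies to the left of 0, and the widest bars belong to members of low level.

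By role, the splicing regulators were divided, with 5 of 9 higher in mean (4 with total counts or upper quartile scaling) and 3 with an unadjusted p under 0.05. Beside Rbm6, Rbm10, Rbm42 and Rbm48, the group holds Rbm17, which binds U2-type splicing factors and stood at 112 ± 57.9 CPM in Ag and 157 ± 10.9 in Ag+Costim, and Rbm25, which aids 5' splice site choice and stood at 145 ± 29.0 and 178 ± 6.32 CPM. Rbm41, which binds the U12 snRNA, was low at 3.86 and 3.71 CPM. Among the 6 members tied to exon junctions and RNA decay, 4 had the higher mean in Ag+Costim (3 with total counts or upper quartile scaling). Rbm8a, the core protein Y14 of the exon junction complex, was at 64.9, 191, 108, 66.5 and 208 CPM in Ag and 171 ± 15.2 in Ag+Costim. Rbm7, of the nuclear exosome targeting complex, was at 107 ± 15.8 and 119 ± 3.78 CPM. Rbm26, the paralog of Rbm27, was at 16.5 ± 5.34 and 15.5 ± 2.50 CPM, and Rbm33, an RNA export factor, at 25.1 ± 6.69 and 22.5 ± 1.72 CPM. Rbm8a2, a close copy of Rbm8a, was at 0.421 and 0.667 CPM, and reads could be split between such copies.

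All 3 nucleolar members had the higher fitted level in Ag+Costim under each of the 4 scalings, and each overlapped between the groups. Rbm28, needed for the large ribosomal subunit, was at 59.3 ± 21.1 CPM in Ag and 80.8 ± 4.14 in Ag+Costim, and Rbm34 at 40.4 ± 14 and 54.1 ± 3.05 CPM. Rbm4 and Rbm4b, paralogs that act in splicing and translation, differed little, at 41.7 ± 7.0 and 41.2 ± 4.69 CPM for Rbm4 and 34.4 ± 5.02 and 37.6 ± 2.22 CPM for Rbm4b. Among members with other or less known roles, Rbm45 was at 64.8 ± 17.6 and 81.2 ± 3.49 CPM, Rbm12 at 33.1 ± 10.4 and 47.1 ± 9.62, Rbm43 at 54.2 ± 8.19 and 59.9 ± 6.30, and Rbm18 at 44.7 ± 5.45 and 43.9 ± 2.47. The closely related Rbm12b1 and Rbm12b2 were at 9.65 and 9.12 CPM and at 11.5 and 11.9 CPM.

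Several regulators known from other tissues were low, and Rbm24 and Rbm46 were near or at the floor of detection in most libraries. A count of 3 corresponded to 0.00515 to 0.0423 CPM. Rbm24, a muscle splicing factor, was at 0.133, 0, 0.690, 0.0309 and 0 CPM in Ag and at 0 in all 5 Ag+Costim libraries, where an estimated count of 3 corresponded to 0.00515 to 0.00971 CPM. Rbm46, a germ cell factor, was at 0.233, 0, 1.51, 0.0711 and 0 CPM in Ag and at most 0.0259 in Ag+Costim. Both were present in Ag replicates 1, 3 and 4 and absent from Ag replicates 2 and 5, as Ms4a1 nearly was, and their highest value was in the shallow Ag replicate 3. Ag replicates 1, 3 and 4 had counts on far more genes than Ag replicates 2 and 5 (40441 to 51778 against 20714 and 21779). The pattern is thus not particular to these 2 members, and its cause was not tested. Rbm47, an epithelial splicing and RNA editing factor, was at 7.11 CPM in Ag replicate 3 and between 0.281 and 1.51 CPM in the other 9 libraries. Rbm20 was at 0.757, 0.0441, 2.99, 0.885 and 0.0323 CPM in Ag and at 0.227 to 0.365 in Ag+Costim. Rbm11, expressed in brain and testis, was at 0.385 ± 0.270 CPM in Ag and 0.155 ± 0.143 in Ag+Costim, and the germ cell gene Rbm44 at 5.01 ± 3.03 and 7.88 ± 1.59 CPM.

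Divided by transcript length and scaled to the same total in every library (TPM), levels can be compared between genes, and Rbm3 was the most abundant member in both groups, at 406 ± 148 TPM in Ag and 541 ± 37.4 in Ag+Costim. Rbm39 came second, at 352 ± 164 and 260 ± 22.5 TPM. In Ag these 2 could not be ordered beyond their spread. In Ag+Costim they were followed by Rbm17 (151 ± 8.82 TPM), Rbm42 (105 ± 11.8), Rbm8a (102 ± 7.67), Rbm25 (95.3 ± 3.51), Rbm14 (92.5 ± 10.9) and Rbm7 (91.1 ± 3.62), of which the last 5 overlapped with their neighbours. Rbm38 was at 37.7 ± 12.3 TPM in Ag and 57.7 ± 5.49 in Ag+Costim. Rbm15 had a low level per length throughout, at 5.86 ± 0.599 and 10.2 ± 1.22 TPM, and Rbm15b was lower still, at 3.10 ± 0.799 and 2.90 ± 0.538 TPM.

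The direction found for Rbm42 depended on which annotated gene its reads were given to. Rbm42 (chr7:30640999-30650317, minus strand) lies within the span of Gm21982, a processed transcript of 3821 bases (chr7:30641001-30664937, minus strand) that joins exons of Rbm42 to exons of its neighbour Haus5. Rbm42 alone was at 89.7, 222, 142, 113 and 250 CPM in Ag against 94.9, 128, 101.2, 107 and 106 CPM in Ag+Costim. Gm21982 was at 40.3, 1.49, 1.08, 35 and 31.1 CPM in Ag against 174, 140, 199, 191 and 175 CPM in Ag+Costim, with no overlap (log2 fold change 3.01 ± 0.878, unadjusted p = 0.00588, edgeR BH 0.204). Thus Rbm42 was the lower and Gm21982 the higher in Ag+Costim. With TMM factors their sum was 130, 224, 143, 148 and 281 CPM in Ag (185 ± 64.9) and 269, 267, 300, 298 and 280 CPM in Ag+Costim (283 ± 15.6), where Ag replicate 5 alone reached the Ag+Costim range. With total counts the sum was 173 to 232 in Ag and 247 to 274 in Ag+Costim, higher without overlap (background 2.76%). Under that scaling Rbm42 alone was lower without overlap, at 125 to 206 and 88.3 to 118 (background 1.85%). Tested as 1 feature with TMM factors, the sum had a log2 fold change of 0.61 with an edgeR BH of 0.245, and a two-sided exact permutation test of the difference gave p = 0.0317 (5 against 5 libraries, smallest possible p 0.00794). Haus5, at 47.5 ± 33.5 CPM in Ag and 37.5 ± 4.64 in Ag+Costim, had the lower mean in Ag+Costim, with overlap between the groups. The choice to sum the 2 features was made after their values had been seen.

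The alternative exon of Rbm42 printed at the start showed the same dependence. Counted over Rbm42 transcripts alone, the transcript that includes it, Rbm42-201, held 12.7%, 48.6%, 39.6%, 26.9% and 49.3% of the counts in Ag and 14.8%, 22.6%, 12%, 17.1% and 9.53% in Ag+Costim. Inclusion computed from these transcripts was 35.5% ± 15.6 and 15.2% ± 5.03, 20.2 percentage points lower in Ag+Costim (two-sided exact permutation p = 0.0397). With Gm21982, which contains the exon, counted as including it, inclusion was 39.9%, 48.9%, 40.1%, 44.3% and 54.9% in Ag and 70.0%, 63.1%, 70.3%, 70.4% and 65.9% in Ag+Costim. The difference then was 22.3 percentage points in the opposite direction without overlap (exact permutation p = 0.00794, the smallest this design can give). The PSI, the fraction of spliced reads that include the exon as the authors' Whippet table gives it for each group, was 0.734 in Ag and 0.769 in Ag+Costim.

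**Figure D4:**
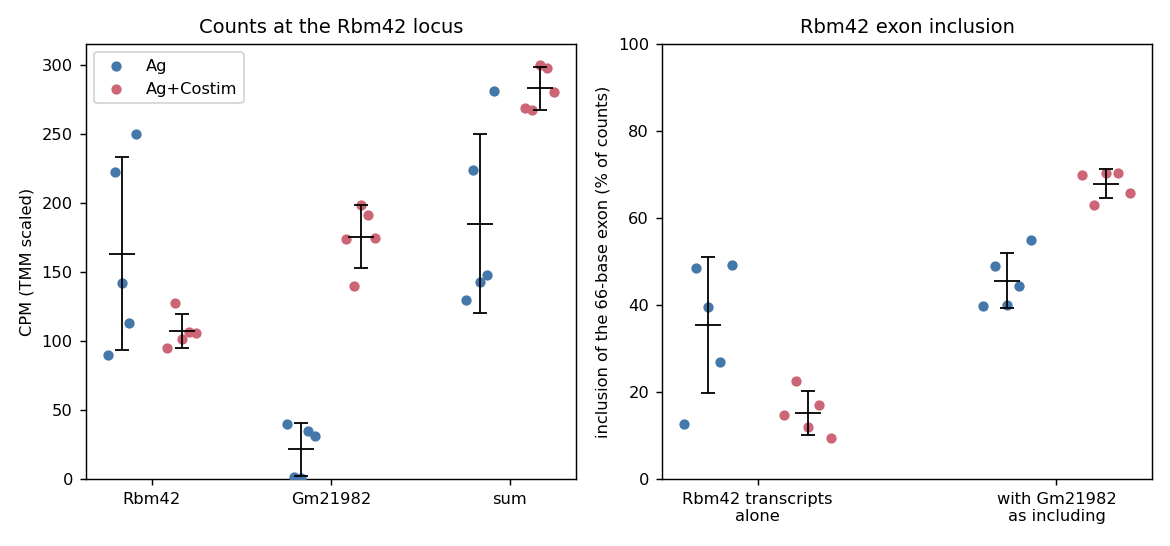
Left, normalised counts (CPM, TMM scaled) of Rbm42, of Gm21982 and of their sum, with 1 point per library, the group mean and 1 SD (n = 5). Right, inclusion of the 66-base Rbm42 exon in percent of counts, from Rbm42 transcripts alone and with Gm21982 counted as including it, where the group means change from 35.5 and 15.2 to 45.6 and 67.9.

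Other members share sequence with annotated read-through or neighbouring genes. Rbm12 overlaps Gm28036 on the same strand, which was at 21.2 CPM in Ag and 26.8 in Ag+Costim, and Rbm12 and Gm28036 summed to 54.4 ± 7.74 and 73.9 ± 19.3 CPM. Rbm14 overlaps the read-through gene Gm21992, at 14.1 and 13.3 CPM. Rbm10 lies opposite Ndufb11, and Rbm15b opposite Dcaf1. Since the library kit does not keep strand, reads of such opposite pairs cannot be told apart where they overlap.

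To learn whether costimulation moved the members between their own transcripts, transcript usage was compared in each gene. Among 10441 genes with several transcripts tested, 31 were called (0.297%), and none of them was a member. Before adjustment, the lowest p belonged to Rbm42 (unadjusted p = 0.0214, edgeR BH 0.568), described above, and to Rbm34 (unadjusted p = 0.0370, BH 0.682), where 6.42% of all genes had an unadjusted p under 0.05. One member, Rbm4b, was called when Ag+Costim replicate 1 was left out (BH 0.0312). Its main coding transcript Rbm4b-201 varied more among libraries than between groups, with 4.34%, 20.7%, 56.0%, 5.01% and 63.2% of the counts in Ag and 19.5%, 65.9%, 70.3%, 42.8% and 28.9% in Ag+Costim. Among 245 transcripts of members with several transcripts and counts in every library, 1 had lower shares without overlap (background 1.12%) and 0 had higher (background 0.77%). It was the retained intron form Rbm19-205 at 0.0800% ± 0.0442 in Ag and 0.0114% ± 0.00319 in Ag+Costim, a very small share of the counts of Rbm19.

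Transcripts annotated as NMD targets or retained introns took a large part of the counts of some members. Rbm7-204, whose stop codon is shown above, held 39.0%, 58.0%, 52.4%, 43.4% and 57.6% of Rbm7 counts in Ag and 56.5%, 53.1%, 57.0%, 47.5% and 56.6% in Ag+Costim. Rbm5-210, which lacks the 74-base exon, held 33.0%, 47.5%, 23.3%, 14.3% and 50.7% of Rbm5 counts in Ag and 42%, 36.2%, 38.1%, 34.6% and 39.5% in Ag+Costim. In both genes, Ag replicates 2 and 5 lay at the level of Ag+Costim or above it and Ag replicates 1 and 4 lay below, and the NMD share did not differ beyond that spread (Rbm7 50.1% ± 8.54 and 54.1% ± 4.01, exact permutation p = 0.389; Rbm5 34.5% ± 15.1 and 39.3% ± 3.15, exact permutation p = 0.508). Other members with more than 10% on such a transcript in at least 1 group were Rbm4b, Rbm18, Rbm38 and Rbm39, and, at low level, Rbm20, Rbm24, Rbm44 and Rbm47.

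Taken as 1 share per gene, NMD and retained intron transcripts had the lower mean in Ag+Costim in 20 of 22 members tested, where 81.4% of all 7114 genes tested did so. None of the genes passed BH adjustment (0.0%, lowest BH 0.280). With 5 against 5 libraries the smallest possible p is 0.00794, so a pass would have required very many genes at that floor. The adjusted result therefore says little about any single gene. Before adjustment, 1 member, Rbm15, had an exact permutation p under 0.05 with the lower share (background 11.5%) and none with the higher (background 1.05%). In no member were the groups apart without overlap (background 2.59% lower and 0.253% higher). The median difference was -1.45 percentage points over the members and -0.957 over all genes. Retained intron transcripts alone had the lower mean share in 20 of 22 members (background 89.0% of 6512 genes), with a median difference of -2.40 percentage points (-1.05 for all genes). NMD transcripts alone had the lower mean share in 3 of 10 members (background 54.1% of 2990 genes), with a median difference of 0.384 (-0.015 for all genes).

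No member was apart without overlap for retained introns alone (background 3.19% lower). The differences were clearest in Rbm15, Rbm39 and Rbm48, the 3 members with an unadjusted p under 0.05 (background 14% lower). In Rbm15 the share was 8.94%, 7.41%, 9.22%, 7.09% and 3.69% in Ag and 4.203%, 3.65%, 3.77%, 3.59% and 3.65% in Ag+Costim (exact permutation p = 0.0238, BH 0.330). Ag replicate 5 lay among the Ag+Costim libraries, and the other 4 Ag libraries lay above all of them. In Rbm39 the share was 16.7% ± 5.29 in Ag and 10.4% ± 2.39 in Ag+Costim (n = 5 each, exact permutation p = 0.0317), and in Rbm48 it was 1.78% ± 1.32 and 0.383% ± 0.0804 (exact permutation p = 0.0476). Several other members had mean differences of this size with larger spread. Rbm5 was at 27.4% ± 11.2 and 18.5% ± 3.49, Rbm18 at 13.7% ± 7.12 and 5.81% ± 1.99, Rbm4b at 37.4% ± 9.79 and 29.1% ± 2.51, and Rbm7 at 12.9% ± 6.87 and 7.49% ± 1.83. Rbm38 went the other way in mean, at 9.93% ± 2.77 and 18.9% ± 17.3, where the transcript Rbm38-203 reached 44.8% and 28.3% in Ag+Costim replicates 1 and 5 and stayed between 4.38% and 6.30% in the other 3.

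The direction of the retained intron share changed when 3 Ag libraries were left out. Ag replicate 5 had the lowest share of the Ag libraries in 13 of the 22 members. Without Ag replicates 1 and 4, the share was lower in mean in 15 of 22 members (median difference -0.853 percentage points). Without Ag replicates 1, 3 and 4, it was lower in 6 of 22, with a median difference of 0.326. Both choices of libraries were made after their values had been seen. The same counts were not computed over all genes, so this change cannot be called particular to the members.

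**Figure D5:**
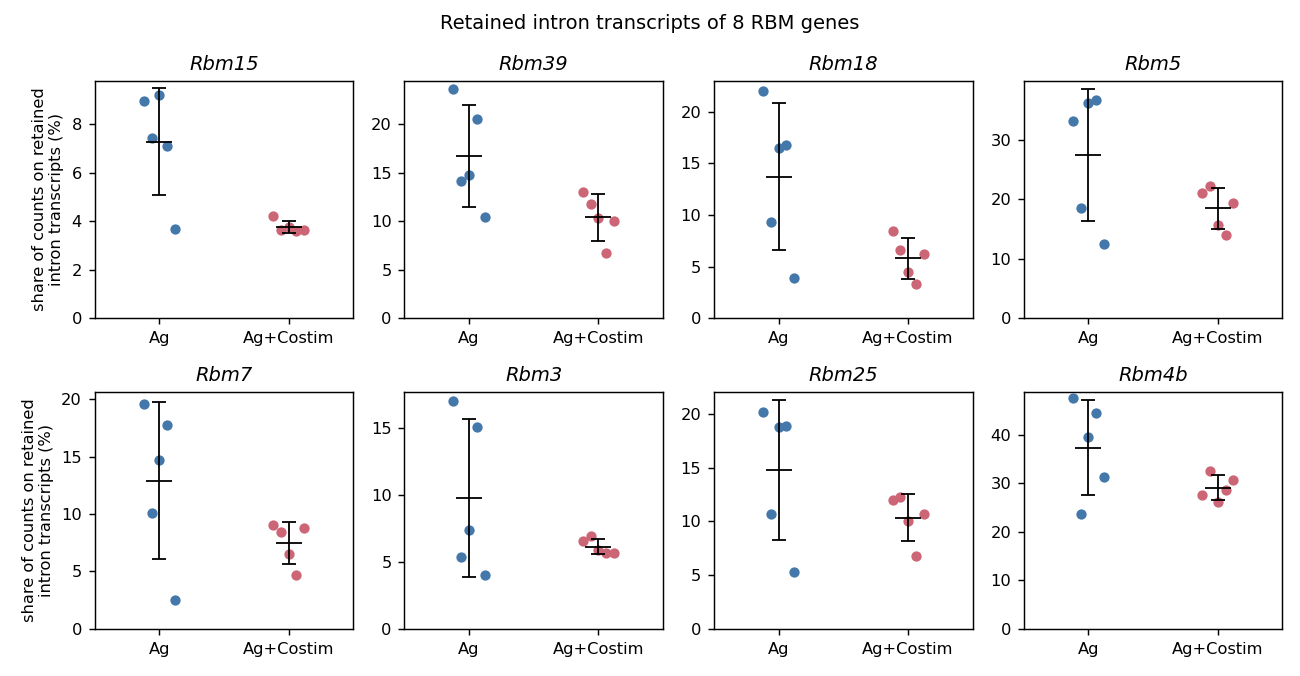
Share of the counts of 8 RBM genes (Rbm15, Rbm39, Rbm18, Rbm5, Rbm7, Rbm3, Rbm25 and Rbm4b) on transcripts annotated as retained introns (y axis, percent of the gene's counts), with 1 point per library, the group mean and 1 SD (n = 5). In each of these 8 genes the SD was larger in Ag, and the Ag+Costim points lay between 3.59% and 4.203% for Rbm15.

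Splicing events of the members were then read from the PSI table, which holds 1 value per group, so that no test was possible. Of 138940 events, 411 belonged to 32 members, and 291 of these had a PSI above 0.9 in both groups. The PSI differed by more than 0.1 in 18 member events, 9 higher in Ag+Costim (background 2.87%) and 9 lower (background 3.0%), or 4.38% of member events against 5.87% of all events. Past 0.05 there were 20 higher (background 5.82%) and 14 lower (background 6.09%), and past 0.2 there were 3 higher (background 1.31%) and 5 lower (background 1.36%). Among genes at 10 CPM or more in both groups, 5 member events were higher (background 1.52%) and 4 lower (background 1.55%), out of 356. Apart from a retained intron, these events were paired ends or starts of the same gene. Within such a pair, a rise at either site tends to go with a fall at the other. Their directions are thus not independent, and the events stand for fewer separate changes. Of the 18 events, 11 were transcript ends, out of 51 member events of that type (21.6%, background 28.8%), and 2 were core exons, out of 292 (0.685%, background 1.40%), both in members under 10 CPM.

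The events past 0.1 in members at 10 CPM or more were alternative transcript ends, alternative starts and 1 retained intron. In Rbm33 the distal end of the last exon (chr5:28416106-28419239, 3134 bases) had PSI values of 0.464 (Ag) and 0.212 (Ag+Costim), and the stretch before it (chr5:28413568-28416105, 2538 bases) had 0.536 and 0.788. Transcript counts of the same gene did not separate the groups: the long form Rbm33-202 of 9510 bases held 78.2%, 53.2%, 21.8%, 51.7% and 13.3% in Ag and 81.5%, 46.1%, 25.9%, 33.3% and 29.0% in Ag+Costim. The spread within each group was therefore far larger than the difference of the means. In Rbm6, the last 245 bases before the most distal end had 0.256 in Ag against 0.511 in Ag+Costim, whereas the final 4 bases had 0.744 and 0.489, so these ends lie next to each other. At the Rbm6 start, a first stretch of 8 bases had 0.156 and 0.0204, and the following 173 bases had 0.845 and 0.980. A pair of Rbm26 ends differed, one of 224 bases at 0.510 and 0.258 and one of 21 bases at 0.0628 and 0.264. The retained intron of Rbm12b2 (chr4:12089524-12089662, 139 bases) had 0.196 and 0.330, and its inclusion from transcript counts was 3.57% ± 3.45 and 3.66% ± 1.24 (exact permutation p = 0.984).

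The printed exons of Rbm34 and Rbm5 showed small differences. The 60-base exon of Rbm34 had PSI values of 0.316 (Ag) and 0.391 (Ag+Costim), and inclusion from transcript counts of 39.4% ± 10.9 and 38.7% ± 3.08 (n = 5 each, exact permutation p = 0.905). The 74-base exon of Rbm5 had PSI values of 0.891 and 0.905, and inclusion from transcript counts of 64.0% ± 15.7 and 60.1% ± 3.07 (exact permutation p = 0.587). For this exon the 2 measures differed in level in both groups. Over all core exons and retained introns, 12978 events could be computed per library, 34 of them in 22 members. No event passed BH adjustment (0.0%, lowest BH 0.510), which again would have required very many events at the smallest possible p of 0.00794. Before adjustment, 2 member events had the lower inclusion in Ag+Costim with a permutation p under 0.05 (background 4.0%), while none had the higher (background 2.14%). These were the Rbm42 exon described above and an Rbm8a intron of 120 bases at 0.593% ± 0.371 and 0.189% ± 0.0337 (exact permutation p = 0.0476).

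Partners with which the members form complexes were measured beside them, from a list of 48 genes of the spliceosome, exon junction complex, nuclear decay, m6A writer, nucleolus and paraspeckle. Of these, 46 were found and tested, and 0 passed the edgeR test after adjustment. Before adjustment, 21 had a p under 0.05, all with the higher mean in Ag+Costim (background 7.89% of all genes tested, not given for genes at 10 CPM or more). The list was chosen with earlier results of these data known, so these counts are not independent support. In 14 the groups did not overlap, again all higher (background 4.48% of all genes tested). Most partners averaged at least 10 CPM, where the background without overlap was 11.3%. With DESeq2 factors, total counts and upper quartile scaling, 18, 18 and 14 had a p under 0.05, and 10, 12 and 5 did not overlap (background 2.88%, 2.76% and 1.48% of all genes tested). The shares of all genes with a p under 0.05 under these scalings are not given here. Nor are the shares without overlap at 10 CPM or more, which with TMM factors exceeded the share over all genes. The median log2 fold change of the 46 was 0.45 with TMM factors, 0.33 with DESeq2 factors, and 0.24 both for total counts and for upper quartile scaling, so its sign did not depend on the scaling. For all genes at 10 CPM or more the medians were 0.24, 0.12, 0.00038 and 0.02 in the same order. The 2 with the lowest p were Nop58, a core protein of snoRNPs (99.2 ± 39.2 CPM in Ag and 238 ± 33.2 in Ag+Costim, log2 fold change 1.26, BH 0.141), and Snrnp70, of the U1 snRNP (110 ± 23.2 and 184 ± 15.9 CPM, 0.74, BH 0.147). Virma and Mettl14, subunits of the m6A writer to which RBM15 belongs, were at 74.7 ± 16.2 and 108 ± 8.05 CPM and at 32.6 ± 8.39 and 46.7 ± 3.39 CPM, and its catalytic subunit Mettl3 at 43.4 ± 8.49 and 48.8 ± 3.20 CPM.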

How the data were processed

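RNA of sorted CD8+ T cells had been amplified with the SMART-Seq v4 kit, made into Nextera XT libraries, which do not keep strand, and sequenced in pairs. Per the labels and the submitters' processing notes, the authors aligned reads to mm10 with HISAT2 2.1.0, used SAMtools 1.9 for sorting, and quantified genes and transcripts with StringTie 2.1.0. What the authors deposited are estimated counts without normalization, derived from coverage and given as whole numbers. The authors ran Whippet, whose version is not given in the sources used here, and deposited the PSI of each splicing event as a fraction with 1 value per group. The deposited table also holds 3 scores that the authors computed with Whippet, the PSI difference, its probability and an entropy score, and none was used.

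GENCODE vM21 accounted for 55536 gene and 141862 transcript identifiers. A further 26345 entries named no gene, held at most 0.308% of a library's counts and were left out. Counts of 10 libraries (5 Ag, 5 Ag+Costim) of the 15 samples in the labels were analysed. A count of 3, the floor used, corresponds to 0.00515 to 0.0423 CPM, and this covers counting error only. With the estimates treated as read counts, no pair of libraries of the same group agreed within sampling noise (chi-square per degree of freedom at least 182 over 8626 genes). The estimates derive from coverage, and in most libraries their total exceeds the read number given in the methods. Neither the floor nor this chi-square can therefore be taken as a measure of true sampling noise. P-values measure the spread between these samples.

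Gene counts were tested with edgeR 4.0.16 (filterByExpr, TMM, robust quasi-likelihood) in R 4.3.3, with BH adjustment across every gene tested (threshold 0.05). DESeq2 1.42.0 and limma 3.58.1 were alternatives. Transcript usage was tested with diffSpliceDGE (gene-level Simes BH under 0.05 and a share change over 10 percentage points). Transcript shares and exon inclusion were compared by exact permutation, two-sided, over the 252 splits of 10 libraries, whose smallest p is 0.00794. The count tests and the permutation tests were also run on simulated data. There both groups had the same spread, so those runs do not cover the wider spread within Ag. TPM was computed as counts per transcript length, summed per gene. PSI values had no test.

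Members, roles, partner and marker lists were chosen with earlier results of these data known. Per-library values were to be given for members without overlap, then for others with an unadjusted p under 0.05 by range, and up to 2 partners by p. The values of Rbm42, Rbm3, Rbm39, Rbm5, Rbm8a, Rbm20, Rbm24, Rbm46, Virma, Mettl14 and Mettl3 were added after they had been seen, as were the transcripts and exons of Rbm4b, Rbm33, Rbm34 and Rbm5. Replicate numbers were not taken to pair libraries. Other alternatives were scalings, filters, a replicate block and leaving out libraries.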

Additional observations from a re-analysis of the deposited data

Results flagged for a closer look

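In 58 groups of 5 libraries (members reaching 10 CPM), a single library far from the other 4 was found 3 times. Rbm19 was at 24.3 CPM in Ag replicate 2, against 10.5 to 11.8 in the other Ag libraries (gap 0.901 of the range, critical value 0.71). Rbm27 was at 54.1 CPM in Ag+Costim replicate 3, against 61.5 to 63.1 (0.823). Rbm8a was at 197 CPM in Ag+Costim replicate 4, against 159 to 169 (0.741). By chance about 1 in 20 groups is flagged.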

How the results depend on the processing

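No member was called in the edgeR fit under any scaling, without the filter, with the replicate block or without any 1 library. DESeq2 called 8046 genes and 6 members, limma voom 12670 and 24, and edgeR without Ag replicates 1, 3 and 4, an alternative chosen after seeing the data, 2752 and 5. The median log2 fold change of the members, 0.17, was 0.0387 with DESeq2, 0.036 with its size factors in edgeR, 0.27 with voom, 0.48 without the filter, 0.26 with the replicate block, 0.29 with Rbm42 and Gm21982 summed, -0.10 with total counts, -0.063 with upper quartile scaling, and 0.14 to 0.25 without any 1 library. The 5 members higher without overlap became 2 under each other scaling, 5 to 8 without any 1 library (8 without Ag replicate 2 or 5) and 10 without Ag replicates 1, 3 and 4. The 0 members lower without overlap became 1 with total counts (background 1.85%), 1 without Ag replicates 1 and 4 (background 2.59%) and 1 without Ag replicates 1, 3 and 4 (background 11.4%). Rbm48 turned to -0.11 with total counts and -0.063 with upper quartile scaling, Rbm42 to 0.61 when summed with Gm21982, and its exon inclusion to 22.3 percentage points. The causes were not tested. Genes with changed transcript usage, 31, were 19 with a minimum of 50 counts, 145 with limma's diffSplice and 33 to 94 without any 1 library (64, 85, 57, 83 and 94 without Ag replicates 1 to 5, and 47 without Ag+Costim replicate 1). Members among them were 0 to 1, the 1 without Ag+Costim replicate 1. The 20 members with a lower NMD and retained intron share were 18 to 20 without any 1 library and 3 with NMD transcripts alone, where fewer members were tested. PSI events past the threshold, 18, were 34 at 0.05, 8 at 0.2 and 9 at 10 CPM or more.

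The deviations of same-numbered libraries from their group means had correlations of mixed sign (0.257, 0.147, -0.094, -0.291 and 0.129 over 8626 genes). Ag+Costim replicates 1, 2 and 5 correlated best with the Ag library of their own number, and replicates 3 and 4 did not. Of the Ag libraries, only replicate 1 correlated best with its own number. Numbers were therefore not taken to pair samples. With the replicate block 0 genes and 0 members were called for expression, 2419 genes had an unadjusted p under 0.05 in place of 4501, and 30 genes were called for usage. Rbm24 and Rbm46 did not pass the filter on low counts of the edgeR fit. Estimated counts cannot resolve how reads of shared exons were divided.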
